A study of Mus musculus with 12 samples.

Results

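The 53 protein-coding keratin genes of the mouse, taken from a count table of 55487 genes by their symbol (Krt followed by a digit), were followed through 12 breast tumours. Symbols of keratin-associated proteins were not taken, and Krt74 and Krt8-ps were left out because the table annotates them as pseudogenes. The tumours came from 6 MMTV-PyMT mice carrying Bad3SA (Bad3SA 1 to 6) and 6 MMTV-PyMT mice with wild-type Bad (Bad_WT 1 to 6), all on the C57BL/6J strain, with 1 tumour sample per mouse. In this model the promoter of mouse mammary tumour virus (MMTV) expresses polyoma virus middle T antigen (PyMT) in mammary epithelial cells, so both genotypes carry the oncogene. BAD is a BCL2-family protein that promotes cell death, and in Bad3SA the serines whose phosphorylation restrains it are replaced. End-point ages ran from 22.857 to 31.143 weeks in Bad3SA mice and from 21.286 to 27.143 weeks in Bad_WT mice. The comparison addressed here is how keratin transcripts, from those of luminal cells to those of skin and hair, vary among the tumours and between the genotypes.

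Keratins are the intermediate filament proteins of epithelial cells, and each filament is built from pairs of an acidic type I and a basic type II keratin. The pair in use marks the kind of epithelium: Krt8 with Krt18 in simple epithelia such as the luminal layer of the breast, Krt5 with Krt14 in the basal layer of stratified epithelia and in myoepithelial cells, and Krt1 with Krt10 above the basal layer of the epidermis. Krt6a, Krt6b, Krt16 and Krt17 are induced in injured or hyperproliferative skin, and further sets belong to the inner root sheath of the hair follicle and to the hair shaft and nail. In the GRCm38 annotation 27 of the members lie on chromosome 11 between 99232761 and 100269871, and 26 lie on chromosome 15 between 101347444 and 102032027.

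Libraries held 58096172 counts (Bad3SA 5) to 83296370 counts (Bad_WT 2), and 3 counts, taken as the lower limit of a level, corresponded to 0.0346 to 0.0544 CPM (counts scaled to library size by TMM). Spearman correlations between tumours across genes ran from 0.937 to 0.989. Bad transcripts were at 48.8 ± 12.4 CPM in Bad3SA tumours and 47.0 ± 8.30 CPM in Bad_WT tumours (SD, n = 6 each); the mutation lies in codons, so a transcript level does not check the genotype labels. Bad_WT 4 stood apart in the keratins. It was the highest of the 12 tumours for 34 of the 53 members, and for 20 of the 31 members with enough counts to be tested, where 6.57% of all 18019 genes tested were highest in it. Results are therefore given with and without Bad_WT 4. The keratin levels themselves led to this choice. P-values, calls and non-overlap without Bad_WT 4 are thus descriptive and do not test the genotypes independently of it. In bulk tumour RNA, fewer cells of a type and less RNA per cell cannot be told apart.

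**Figure D1:**
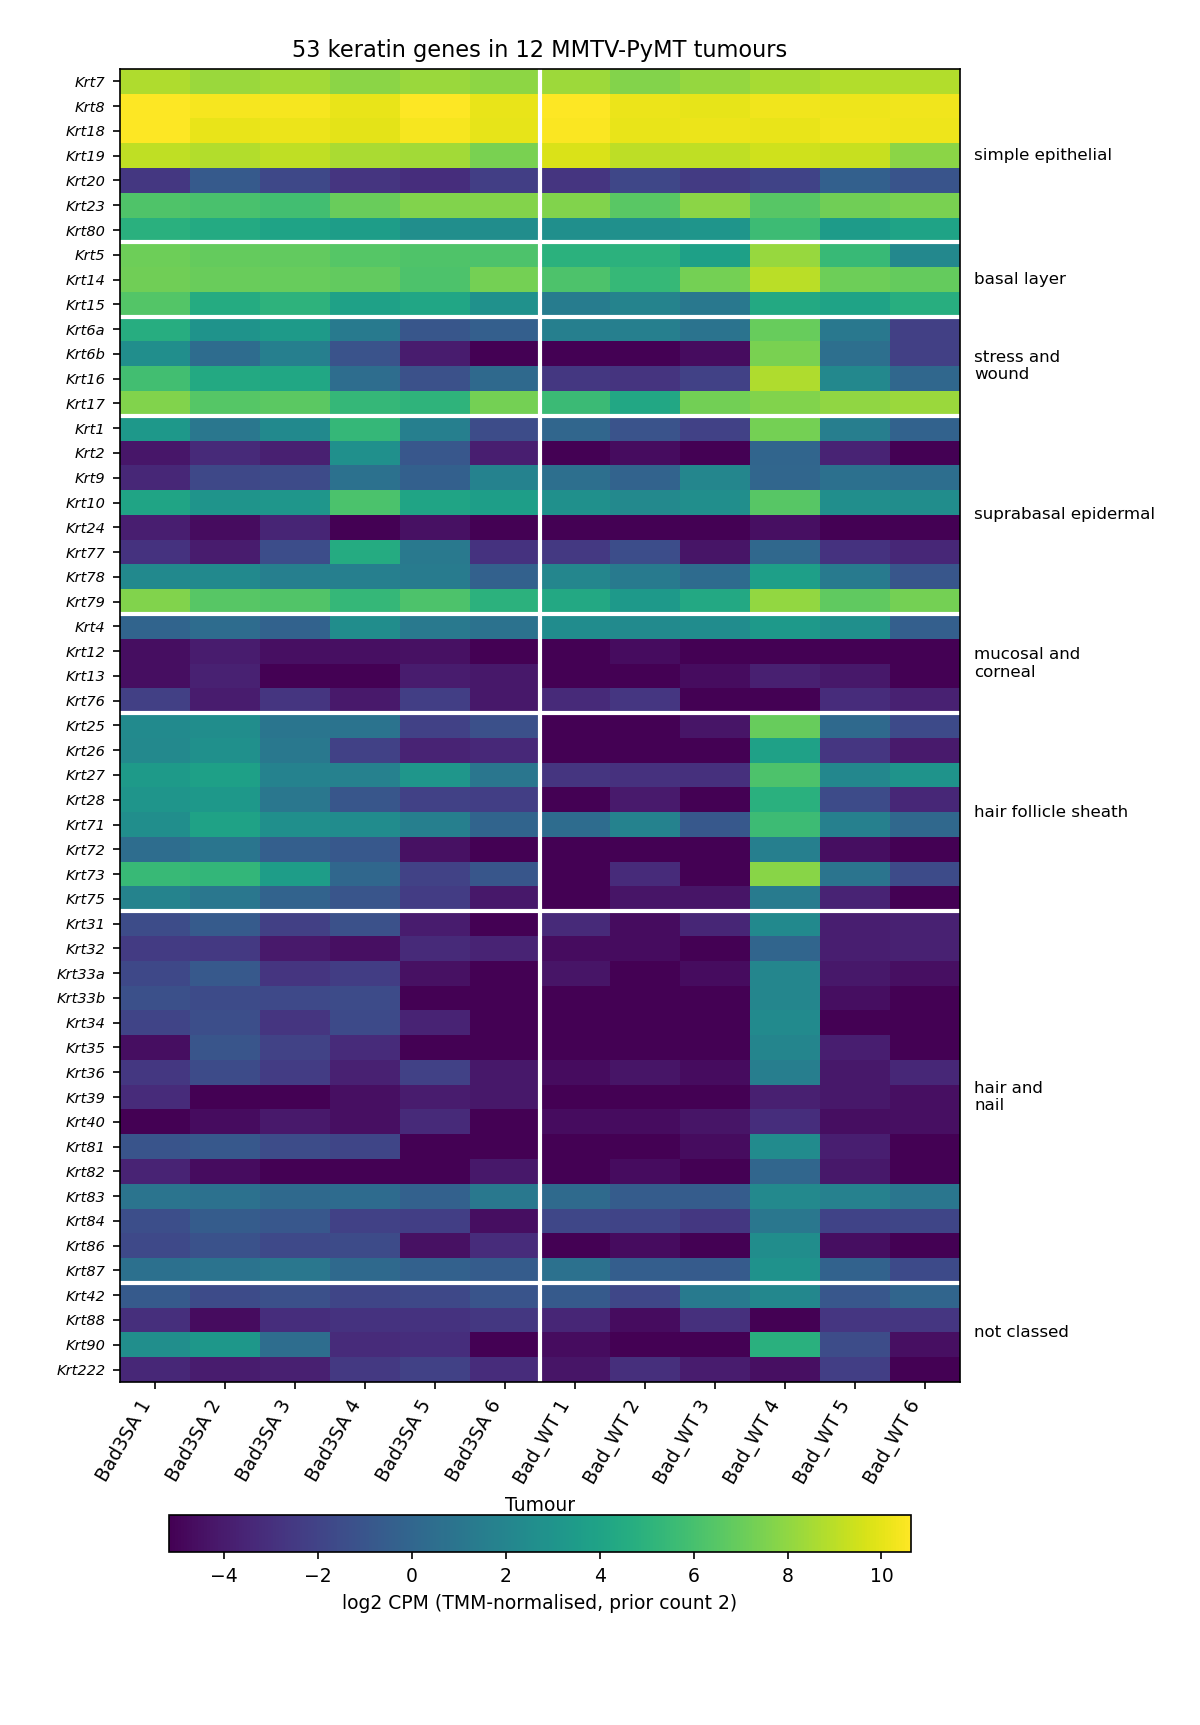
Log2 CPM of the 53 keratin genes (rows, by class) in the 6 Bad3SA tumours (left) and the 6 Bad_WT tumours (right). Krt8 and Krt18 are bright in every tumour, whereas Krt6a, Krt6b, Krt16 and the sheath keratins other than Krt75 are brightest in Bad_WT 4.

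Keratins of simple epithelium made up most keratin transcript, and the luminal pair was the steadiest. The 7 members of this class summed to 3409 ± 523 CPM in Bad3SA tumours and 3569 ± 489 CPM in Bad_WT tumours (SD, n = 6 each). They gave 80.9% to 95.9% of all keratin CPM in 11 tumours and 55.4% in Bad_WT 4, where their own sum of 3619 CPM lay within the range of the other tumours. Per kilobase of exon, averaged over all 12 tumours, Krt18 was highest at 840 CPM per kb, then Krt8 at 663 and Krt19 at 268, followed by Krt23 at 90.0, Krt17 at 86.6, Krt14 at 85.4, Krt7 at 46.8 and Krt5 at 39.4. Krt23, Krt17 and Krt14 lay closer together in this order than the spread of each between tumours.

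Krt8 (ENSMUSG00000049382, chromosome 15, 101996698 to 102004482, minus strand), the type II keratin of simple epithelia, was at 1575, 1356, 1362, 1101, 1580 and 1102 CPM in Bad3SA 1 to 6, against 1564, 1149, 1065, 1256, 1211 and 1247 CPM in Bad_WT 1 to 6. Its partner Krt18 (ENSMUSG00000023043, chromosome 15, 102028180 to 102032027, plus strand), the type I gene that sits in the type II cluster, was at 1514, 1082, 1161, 1020, 1360 and 1073 CPM in Bad3SA tumours, against 1505, 1076, 1139, 1114, 1263 and 1178 CPM in Bad_WT tumours. The genotypes overlapped throughout for both genes. The SD of log2 CPM over the 12 tumours was 0.21 for Krt8 and 0.19 for Krt18, below the median of 0.39 for all genes tested. The log2 fold change (Bad3SA over Bad_WT, as everywhere here) was 0.11 for Krt8 (SE 0.13, edgeR adjusted p = 0.686) and -0.01 for Krt18 (SE 0.13, adjusted p = 0.966). Krt8 shares 98.6% identity over 941 aligned bases with the pseudogene Krt8-ps, which held 86 to 183 counts per tumour.

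The other simple-epithelial members varied more. Krt19, a type I keratin of ductal epithelia, was at 544, 452, 545, 399, 339 and 172 CPM in Bad3SA tumours, against 849, 538, 546, 725, 624 and 236 CPM in Bad_WT tumours (log2 fold change -0.52, SE 0.30, edgeR adjusted p = 0.401). Within each genotype tumour 6 was the lowest. Krt7, the ductal type II keratin, ran from 240 to 432 CPM in Bad3SA tumours and from 204 to 453 CPM in Bad_WT tumours. Krt23, a type I keratin of glandular epithelia, ran from 58.4 to 206 CPM in Bad3SA tumours and from 92.4 to 234 CPM in Bad_WT tumours. Their log2 fold changes were -0.15 for Krt7 (SE 0.20, edgeR adjusted p = 0.735) and -0.36 for Krt23 (SE 0.34, adjusted p = 0.608). Krt80 averaged 15.3 ± 9.24 CPM and 16.5 ± 17.0 CPM (SD, n = 6 each) in Bad3SA and Bad_WT tumours, and Krt20, a keratin of gut and urothelium, stayed under 0.8 CPM in all 12. None of the 7 passed the test, in which 1.38% of all genes tested did.

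Of the basal-layer keratins, Krt5 overlapped between the genotypes only through Bad_WT 4. Krt5 (ENSMUSG00000061527, chromosome 15, 101707070 to 101712898, minus strand), the type II keratin of basal and myoepithelial cells, was at 144, 119, 116, 88.2, 78.3 and 75.6 CPM in Bad3SA 1 to 6, against 30.8, 31.5, 13.7, 293, 45.3 and 4.57 CPM in Bad_WT 1 to 6. Every Bad3SA tumour was above 5 of the 6 Bad_WT tumours, and Bad_WT 4 was above all Bad3SA tumours. Without Bad_WT 4, a tumour picked by its keratin levels, 1.72% of all genes tested had every Bad3SA tumour above. With all 12 tumours the log2 fold change was 0.57 (SE 0.73, edgeR adjusted p = 0.710), and without Bad_WT 4 it was 2.04 (SE 0.46, adjusted p = 0.0447). With end-point age also in the model the value without Bad_WT 4 was 2.03 (SE 0.52, adjusted p = 0.145).

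Its usual partner did not follow. Krt14 (ENSMUSG00000045545, chromosome 11, 100203162 to 100207548, minus strand), the type I basal keratin, was at 144, 131, 125, 114, 73.0 and 163 CPM in Bad3SA tumours, against 74.9, 42.7, 160, 515, 140 and 118 CPM in Bad_WT tumours. The groups overlapped with and without Bad_WT 4, and the log2 fold change was -0.49 (SE 0.47, edgeR adjusted p = 0.611) with it and 0.23 (SE 0.30, adjusted p = 0.700) without it. Per kilobase, Krt5 stood to Krt14 in a ratio of 0.686 ± 0.174 in Bad3SA tumours and 0.289 ± 0.217 in Bad_WT tumours (SD, n = 6 each). The ratio was lowest in Bad_WT 6 (0.0309) and Bad_WT 3 (0.0685). Krt15, a type I keratin of basal cells and of the hair follicle bulge, averaged 30.3 ± 27.8 CPM in Bad3SA tumours and 12.1 ± 10.8 CPM in Bad_WT tumours (log2 fold change 1.32, SE 0.70, edgeR adjusted p = 0.370). Bad3SA 1 alone was at 84.0 CPM, and without it the log2 fold change was 0.67.

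**Figure D2:**
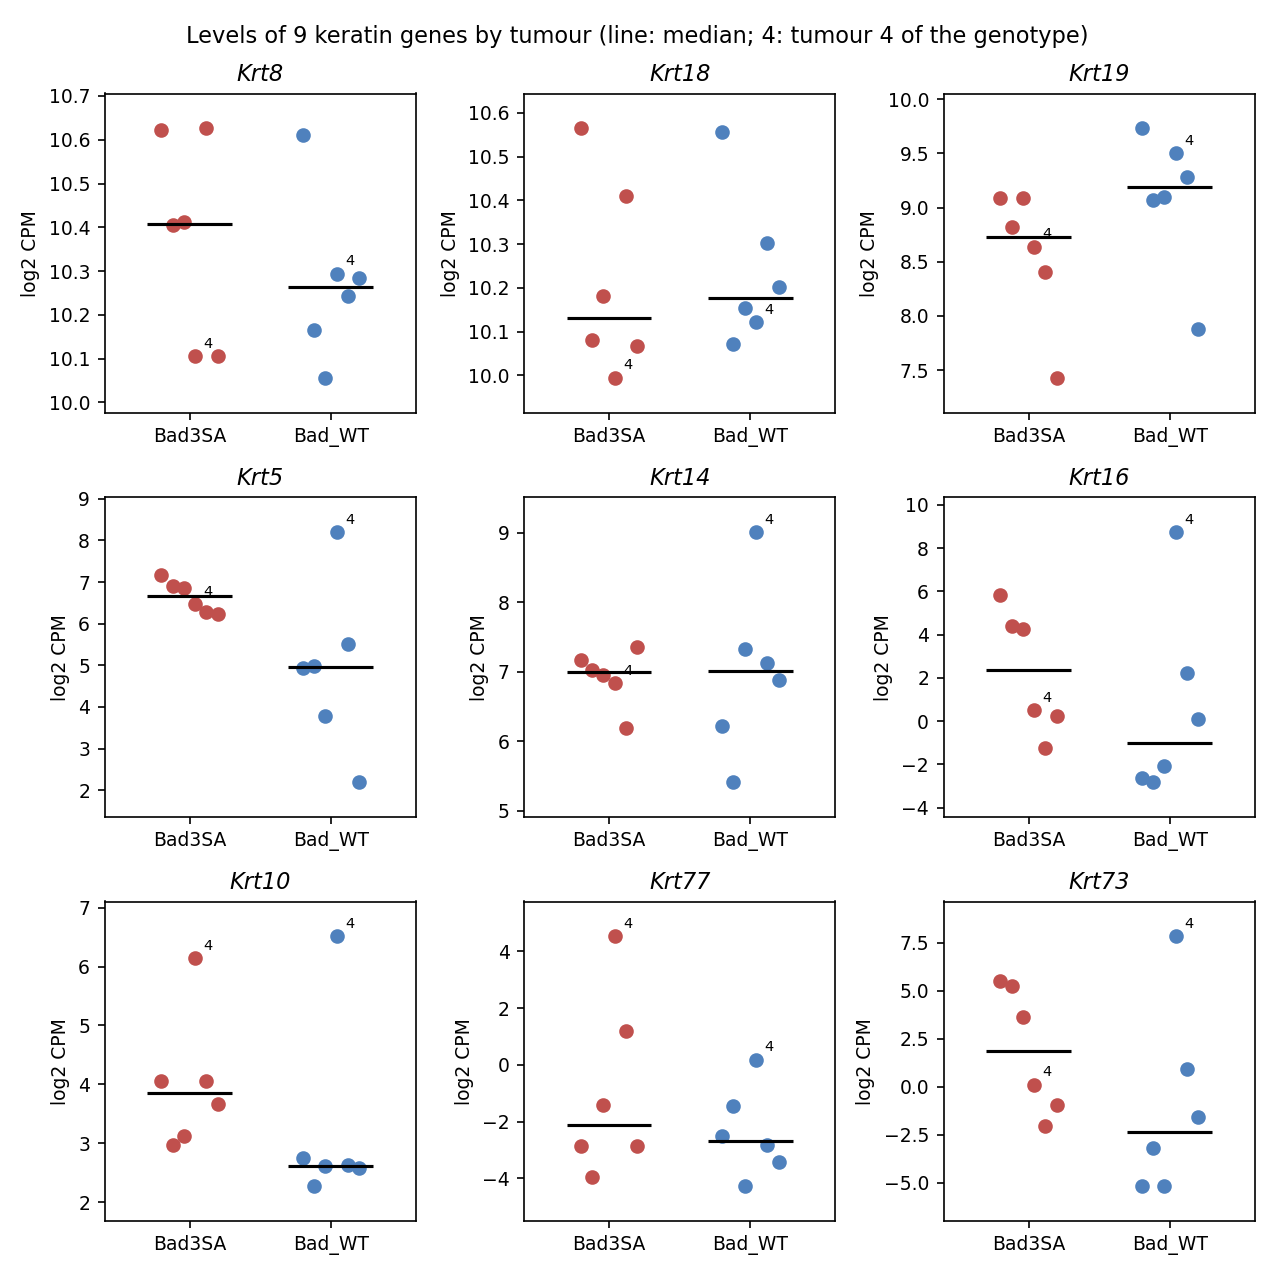
Log2 CPM of 9 keratin genes in each tumour, Bad3SA left and Bad_WT right, with the group median as a line and tumour 4 of each genotype numbered. Krt8 and Krt18 span less than 1 log2 unit, whereas Krt5, Krt16, Krt10 and Krt73 show Bad_WT 4 far above the other 5 Bad_WT tumours.

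The stress keratins other than Krt17 were near the detection limit in some tumours and abundant in Bad_WT 4. Krt16 (ENSMUSG00000053797, chromosome 11, 100246091 to 100248902, minus strand), the type I keratin of wounded and hyperproliferative epidermis, was at 57.0, 21.1, 18.9, 1.38, 0.399 and 1.17 CPM in Bad3SA tumours, against 0.134, 0.115, 0.207, 423, 4.62 and 1.05 CPM in Bad_WT tumours. Krt6b, a type II stress keratin, was at 6.32, 1.32, 3.16, 0.423, 0.0363 and 0 CPM in Bad3SA tumours, against 0, 0, 0.0122, 175, 1.49 and 0.196 CPM in Bad_WT tumours. Krt6a was at 0.490 to 25.6 CPM in Bad3SA tumours and at 0.196 to 125 CPM in Bad_WT tumours. For all 3 genes the highest tumour was Bad_WT 4 and the next was Bad3SA 1. Reads of Krt6a and Krt6b, which are 92.6% identical, could be divided between the copies, and Krt16 shares 97.3% identity over 880 bases with the pseudogene Gm11597. Krt17, which is also made by basal cells and hair follicles, was present everywhere, at 34.6 to 200.5 CPM in Bad3SA tumours and 20.1 to 302 CPM in Bad_WT tumours, with its highest level in Bad_WT 6. The class summed to 131 ± 92.2 CPM in Bad3SA tumours and 288 ± 331 CPM in Bad_WT tumours (SD, n = 6 each), or 161 ± 125 CPM over the 5 Bad_WT tumours other than Bad_WT 4. With all 12 tumours the log2 fold changes were -3.96 for Krt6b (SE 2.11, edgeR adjusted p = 0.370), -2.10 for Krt16 (SE 1.82, adjusted p = 0.568), -1.50 for Krt6a (SE 1.34, adjusted p = 0.582) and -0.66 for Krt17 (SE 0.59, adjusted p = 0.581). None of the 4 passed the test, and Krt6a, Krt6b and Krt16 turned from negative to positive log2 fold changes without Bad_WT 4 (1.95, 2.50 and 3.80).

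Among the keratins of the suprabasal epidermis, Krt1 and Krt10 were highest in Bad_WT 4 and next in Bad3SA 4. The class as a whole summed to 48.6 to 227 CPM in Bad3SA tumours, the highest being Bad3SA 1, and to 18.8 to 536 CPM in Bad_WT tumours, the highest being Bad_WT 4. Krt10 (ENSMUSG00000019761, chromosome 11, 99385254 to 99389364, minus strand), the type I keratin of differentiating epidermis, was at 16.6, 7.87, 8.74, 70.8, 16.7 and 12.7 CPM in Bad3SA tumours, against 6.68, 4.84, 6.08, 91.1, 6.19 and 5.95 CPM in Bad_WT tumours. Bad_WT tumours other than Bad_WT 4 lay below every Bad3SA tumour, an order that 1.72% of all genes tested had. The log2 fold change was 0.14 (SE 0.83, edgeR adjusted p = 0.943) with all 12 tumours and 1.88 (SE 0.52, adjusted p = 0.0927) without Bad_WT 4. Its partner Krt1 was at 9.53, 2.09, 5.01, 41.2, 3.07 and 0.320 CPM in Bad3SA tumours, against 1.03, 0.439, 0.207, 161, 3.02 and 0.849 CPM in Bad_WT tumours. Krt10 overlaps the antisense gene Gm11940 on the opposite strand, and reads of the 2 cannot be told apart because no source used here states a strand setting.

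Krt77 and Krt2, further keratins of the suprabasal layers, were highest in Bad3SA 4. Krt77 (ENSMUSG00000067594, chromosome 15, 101858731 to 101869705, minus strand) was at 0.108, 0.0366, 0.347, 23.0, 2.25 and 0.111 CPM in Bad3SA tumours, against 0.146, 0.335, 0.0243, 1.10, 0.112 and 0.0653 CPM in Bad_WT tumours. At 3.85 (SE 1.5, edgeR adjusted p = 0.238) its log2 fold change was the largest positive value among the 31 members tested, and 0.91 remained without Bad3SA 4. Krt2, a type II keratin of the upper epidermal layers, had 465 counts over the 6 Bad3SA tumours and 70 over the 6 Bad_WT tumours; at 6.62 CPM Bad3SA 4 held most of it, with 0.968 CPM in Bad_WT 4. Lor, which encodes loricrin of the cornified envelope, was at 66.2 CPM in Bad3SA 4, at most 4.21 CPM in the other Bad3SA tumours and at most 3.72 CPM in Bad_WT tumours. Krt79, known in mouse from the hair follicle infundibulum, was the most abundant member of the class, at 31.0 to 196 CPM in Bad3SA tumours and 9.95 to 267 CPM in Bad_WT tumours. Krt78 averaged 3.24 ± 1.57 CPM and 3.99 ± 4.71 CPM, and Krt9, a keratin of palm and sole skin, 1.11 ± 1.34 CPM and 1.77 ± 1.25 CPM in Bad3SA and Bad_WT tumours (SD, n = 6 each). Their log2 fold changes were -0.30 for Krt78 (SE 0.65, edgeR adjusted p = 0.839) and -0.68 for Krt9 (SE 0.74, adjusted p = 0.653). Krt24 had 9 counts in all Bad3SA tumours together and 1 in all Bad_WT tumours.

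Mucosal and corneal keratins were scarce, and Krt4 was the only 1 of the 4 that could be tested. Krt4 (ENSMUSG00000059668), the type II keratin of stratified mucosa such as the oesophagus, was at 0.934, 1.33, 0.846, 5.96, 2.25 and 1.71 CPM in Bad3SA tumours, against 5.71, 5.16, 5.74, 10.3, 6.54 and 0.735 CPM in Bad_WT tumours. Bad_WT 6 was the lowest of all 12 and Bad3SA 4 lay among the other Bad_WT tumours, so the groups overlapped. The log2 fold change was -1.39 (SE 0.57, edgeR adjusted p = 0.260), and limma voom with quality weights gave -2.05 (adjusted p = 0.0341). Krt12, Krt13 and Krt76 had at most 39 counts in the 6 tumours of a genotype, and Krt13, the usual partner of Krt4, had 9 in Bad3SA tumours and 6 in Bad_WT tumours.

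Keratins of the hair follicle sheath had the widest range of all classes. The 8 members, which line the inner root sheath and companion layer of the hair follicle, summed to 85.0, 93.9, 30.1, 13.6, 12.5 and 4.12 CPM in Bad3SA 1 to 6, against 1.44, 3.83, 0.693, 525, 11.2 and 9.46 CPM in Bad_WT 1 to 6, a 758-fold range. Krt73 (ENSMUSG00000063661), a type II inner root sheath keratin, was at 45.0, 38.4, 12.3, 1.05, 0.218 and 0.487 CPM in Bad3SA tumours, against 0, 0.0808, 0, 230, 1.85 and 0.310 CPM in Bad_WT tumours. The type I partners Krt25, Krt27 and Krt28 reached 123, 73.5 and 28.4 CPM in Bad_WT 4, with at most 6.00, 13.9 and 9.57 CPM in Bad3SA tumours and at most 1.15, 7.65 and 0.309 CPM in the other Bad_WT tumours. The log2 fold changes were -3.0 for Krt25 (SE 1.85, edgeR adjusted p = 0.427) and -0.46 for Krt28 (SE 1.68, adjusted p = 0.905) with all 12 tumours, and 3.18 and 5.47 (adjusted p = 0.220 and 0.0779) without Bad_WT 4. Bad_WT 4 was highest for each member except Krt75.

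Krt75 (ENSMUSG00000022986, chromosome 15, 101563345 to 101573904, minus strand), the type II keratin of the companion layer, was at 3.64, 2.09, 0.891, 0.470, 0.163 and 0.0278 CPM in Bad3SA tumours, against 0, 0.0231, 0.0243, 2.63, 0.0561 and 0 CPM in Bad_WT tumours. In counts this was 540 over the Bad3SA tumours and 185 over the Bad_WT tumours, of which 177 were in Bad_WT 4. The log2 fold change was 1.42 (SE 1.39, edgeR adjusted p = 0.614) with all 12 tumours and 5.78 (SE 1.23, adjusted p = 0.0341) without Bad_WT 4. The remaining Bad_WT tumours held 0 to 4 counts each, around the lower limit of 3 counts. Without Bad_WT 4, Krt75 thus passed the filter through Bad3SA tumours alone. The size of 5.78 and its call rest on a comparison with that limit. Every Bad3SA tumour except Bad3SA 1 lay below Bad_WT 4, and Bad3SA 6 also lay within the range of the other 5 Bad_WT tumours. With age in the model the edgeR adjusted p without Bad_WT 4 was 0.0519. Krt26 and Krt72, which did not pass the filter on low counts, were at 4.70 and 1.38 CPM in Bad3SA 1 and at 14.9 and 3.17 CPM in Bad_WT 4, and at most 0.126 and 0.0140 CPM in the other 5 Bad_WT tumours. Krt71 was at 0.932 to 15.3 CPM in Bad3SA tumours and 0.547 to 50.4 CPM in Bad_WT tumours.

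Promoter letters, which the choice of members did not use, were counted by class. RefSeq promoters (GRCm38.p6, 250 bases before to 50 after the start) were matched for 36 of the 53 members, as 37 promoters. The letters TATAAA, the core of a TATA box, occurred on either strand in 19 of the 37 keratin promoters (51.4%), where 13.6% of all 32851 promoters of this length held them. By class they occurred in 7 of 8 sheath promoters (87.5%), 6 of 9 hair and nail promoters (66.7%) and 2 of 4 mucosal and corneal promoters. They occurred in 2 of 5 simple-epithelial promoters and 0 of 2 basal-layer promoters (Krt5 and Krt14). Of the suprabasal promoters 1 of 7 held them (14.3%), that of Krt10, near the share of all promoters. GGGCGG, a match for SP1, occurred in 5.41% of keratin promoters and 35.7% of all. TGANTCA, for AP-1, occurred in 5.41% and 7.81%, and GCCNNNGGC, for AP-2, in 18.9% and 16.6%. A match describes the letters only, and SP1 and AP-2 matches can overlap each other. The 60 bases before the RefSeq start are given for the sheath genes Krt25, Krt28 and Krt73 and the suprabasal gene Krt10, with TATAAA in capitals. They are also given for Krt75, Krt5, Krt14 and Krt18, which hold no such letters there. Some matched starts, those of Krt14, Krt18 and Krt7 among them, lie inside the annotated gene. For Krt14 the window ends at 100206090, whereas the gene reaches to 100207548 on the minus strand. Its window therefore does not show the bases before the outer end of the gene. The Krt18 window runs to 102028215, past the annotated gene start at 102028180 on the plus strand, so only part of it lies before the gene.
Krt25, chr11:99322952-99323011, minus strand: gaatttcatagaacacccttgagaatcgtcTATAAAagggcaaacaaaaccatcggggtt
Krt28, chr11:99374904-99374963, minus strand: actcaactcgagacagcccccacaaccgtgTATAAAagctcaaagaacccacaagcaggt
Krt73, chr15:101802361-101802420, minus strand: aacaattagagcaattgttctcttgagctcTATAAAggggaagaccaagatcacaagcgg
Krt10, chr11:99389365-99389424, minus strand: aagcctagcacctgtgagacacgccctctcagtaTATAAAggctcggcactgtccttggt
Krt75, chr15:101573905-101573964, minus strand: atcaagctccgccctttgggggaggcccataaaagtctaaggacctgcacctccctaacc
Krt5, chr15:101712906-101712965, minus strand: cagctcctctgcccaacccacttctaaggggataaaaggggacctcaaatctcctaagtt
Krt14, chr11:100206031-100206090, minus strand: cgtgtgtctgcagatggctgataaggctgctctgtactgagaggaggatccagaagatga
Krt18, chr15:102028156-102028215, plus strand: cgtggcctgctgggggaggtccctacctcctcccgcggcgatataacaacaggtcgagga
Among the sheath promoters the first base of a match lay at position -30 from the start in Krt25, Krt26, Krt28 and Krt73, at -40 in Krt71, at -15 in Krt27 and at -203 in Krt72, and Krt75 held none.

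Hair and nail keratins were at low levels outside Bad_WT 4. The 15 members summed to 4.91 ± 2.04 CPM in Bad3SA tumours and 11.2 ± 20.5 CPM in Bad_WT tumours (SD, n = 6 each), with 53.0 CPM in Bad_WT 4 and 2.79 ± 1.30 CPM over the other 5. Krt86, a type II hair keratin, was at 0.284, 0.403, 0.287, 0.314, 0.0181 and 0.0835 CPM in Bad3SA tumours, against 0, 0.0115, 0, 6.01, 0.0140 and 0 CPM in Bad_WT tumours. Krt34, a type I hair keratin, had 77 counts in the Bad3SA tumours, where Bad3SA 6 had none, and 343 in the Bad_WT tumours, all of them in Bad_WT 4. Krt31, Krt33a, Krt33b, Krt35, Krt36 and Krt81 had the same highest tumour, at 2.98 to 5.33 CPM. Krt32 and Krt82 reached 0.968 and 0.997 CPM in Bad_WT 4 and at most 0.162 CPM elsewhere, and Krt39 and Krt40 had at most 12 counts in a genotype. Krt83, Krt84 and Krt87 could be tested, and none passed; Krt84, at 0.0139 to 0.659 CPM in Bad3SA tumours and 0.134 to 2.13 CPM in Bad_WT tumours, was at -0.72 in the genotype test (edgeR log2 fold change, SE 0.79, adjusted p = 0.656). Identity of 93.2% to 95.2% links Krt31, Krt33a, Krt33b and Krt34, and Krt81, Krt83, Krt86 and Krt87, so single members of these groups are uncertain.

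Of the 4 members outside these classes, Krt42 had the smallest p of all keratins. Krt42 (ENSMUSG00000053654, chromosome 11, 100262882 to 100269871, minus strand), known in mouse from the nail unit, was at 0.596, 0.305, 0.378, 0.251, 0.272 and 0.445 CPM in Bad3SA tumours, against 0.586, 0.254, 2.40, 4.39, 0.505 and 0.964 CPM in Bad_WT tumours. Bad_WT 3, 4 and 6 were above every Bad3SA tumour, and the other 3 Bad_WT tumours lay within their range. The log2 fold change was -2.01 (SE 0.62, edgeR adjusted p = 0.148) and -1.32 (SE 0.51, adjusted p = 0.200) without Bad_WT 4. DESeq2 gave -2.04 with an adjusted p of 0.0178. The authors' deposited table, whose sign runs from Bad_WT over Bad3SA, lists Krt42 at 1.37 with an adjusted p of 0.0192; it was the only keratin under 0.05 in the authors' deposited table among 28 with an adjusted p, where 4.02% of its genes were. Krt90 was at 6.24, 9.09, 1.34, 0.0784, 0.0907 and 0 CPM in Bad3SA tumours, against 0.0122, 0, 0, 28.4, 0.323 and 0.0163 CPM in Bad_WT tumours. Krt88 and Krt222 stayed at or under 0.200 CPM.

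Over the whole family, none of the 31 keratins tested differed between the genotypes by edgeR with all 12 tumours, where 249 of 18019 genes did (1.38%; 0.622% higher and 0.76% lower in Bad3SA). At an unadjusted p under 0.05 there were 3 keratins, Krt42, Krt77 and Krt4, where 16.2% of all genes were. DESeq2 called 1 keratin (Krt42), with 4.35% of the 23366 genes given an adjusted p, and limma voom 1 (Krt4), with 3.21% of all genes tested. DESeq2 gave no adjusted p to some keratins, Krt1, Krt5, Krt6a, Krt6b and Krt10 among them, so it could not call these. The other 22 members did not pass the filter on low counts. The log2 fold change was positive for 6 and negative for 25 keratins, with a median of -0.49, against 0.00 over all genes tested, 50.4% of which were positive. No keratin had non-overlapping genotypes, where 2.23% of all genes tested did. The summed keratin level was 3977 ± 677 CPM in Bad3SA tumours and 4381 ± 1169 CPM in Bad_WT tumours (SD, n = 6 each), with the highest sum, 6530 CPM, in Bad_WT 4.

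Leaving out Bad_WT 4 changed the direction for the family. Because this tumour was picked as the highest for many keratins, their upward shift without it follows in part from that choice. Shares over all genes, which did not guide the choice, are therefore no like background for the keratins. Of the same 31 keratins 21 were then positive and 10 negative, with a median log2 fold change of 0.67, against 0.01 over all genes tested, 50.8% of which were positive. Some marker lists of other tissues moved with the same tumour, while luminal, endothelial, adipocyte, melanocyte and sebaceous lists kept their numbers of positive genes. The 11 skeletal muscle genes tested were 2 positive and 9 negative (median -1.69) with all 12 tumours and all 11 positive (median 2.58) without Bad_WT 4, with the myosin gene Myh1 called (6.91, SE 1.54, edgeR adjusted p = 0.0431). Fibroblast and leukocyte lists had 6 of 9 genes positive each with all 12 tumours and 8 of 9 each without Bad_WT 4. Their part in the keratin result was not tested. In 15 of the 31 keratins the sign turned from negative to positive, where this happened in 3.29% of all genes. Krt5 and Krt75 were called, both higher in Bad3SA, where 1.72% of all genes were called and 0.834% were higher. Krt75 had at most 4 counts in each remaining Bad_WT tumour. A further 9 had an unadjusted p under 0.05, with Krt42 the only lower 1, to make 11 of 31, where 18.3% of all genes were. The genotypes did not overlap for Krt5 and Krt10 among the members tested and for Krt86 among those not tested, each with Bad3SA above, where 4.32% of all genes tested did not overlap and 1.72% had Bad3SA above. Without Bad_WT 4, DESeq2 called 15 of the 53 keratins, all higher in Bad3SA (6.51% of all genes given an adjusted p). Limma voom called 4, Krt5, Krt25, Krt28 and Krt75 (3.90% of all genes), and edgeR with age in the model 0 (0.529%).

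**Figure D3:**
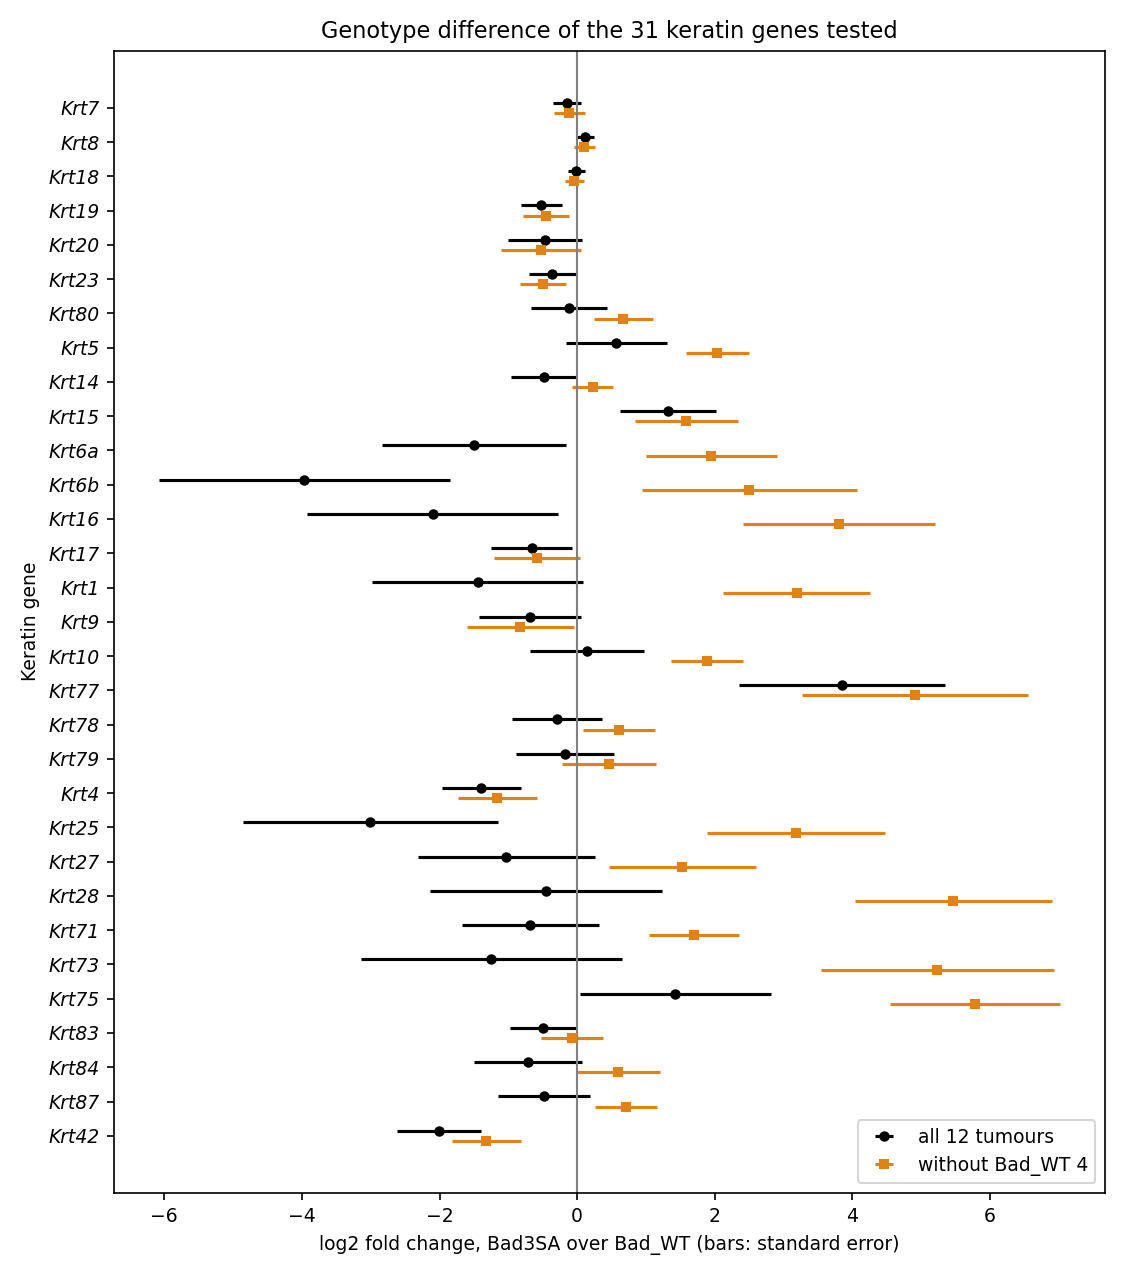
Log2 fold change (Bad3SA over Bad_WT) with its standard error for the 31 keratin genes tested, with all 12 tumours (black circles) and without Bad_WT 4 (orange squares). Krt8 and Krt18 stay near 0 in both fits, whereas Krt16, Krt25, Krt28 and Krt73 cross from negative to positive.

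Partner keratins were compared over the 12 tumours as log2 CPM, for 6 of the 7 pairs listed, since Krt13 did not pass the filter. Krt8 and Krt18 had a Pearson r of 0.82 (permutation p = 0.00258, adjusted p = 0.00774) and a Spearman rho of 0.73 (adjusted permutation p = 0.0298). Within the genotypes r was 0.88 in Bad3SA tumours (permutation p = 0.0139) and 0.85 in Bad_WT tumours (permutation p = 0.108). Without the 2 tumours farthest from the median of Krt8, Bad3SA 1 and Bad3SA 5, r was 0.71 (permutation p = 0.0426, adjusted p = 0.0852). The call after adjustment was thus lost without them, while r stayed positive. Per kilobase Krt8 stood to Krt18 at 0.824 ± 0.065 in Bad3SA tumours and 0.757 ± 0.053 in Bad_WT tumours (SD, n = 6 each). Krt1 and Krt10 had r = 0.86 (adjusted permutation p = 0.00774) and rho 0.77 (adjusted permutation p = 0.0298). Without Bad3SA 4 and Bad_WT 4 their r was 0.51 (adjusted permutation p = 0.206), so the call was lost without these tumours.

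Krt6a and Krt16 had r = 0.78 (adjusted permutation p = 0.00808; rho 0.60, adjusted p = 0.0884), with 0.97 in Bad3SA tumours and 0.71 in Bad_WT tumours. Their r was 0.71 (adjusted permutation p = 0.0709) without Bad_WT 4 and Bad_WT 6 and 0.62 without Bad_WT 4 alone. In Bad_WT 1 and Bad_WT 2 the pair came apart, with Krt6a at 3.17 and 3.08 CPM and Krt16 at 0.134 and 0.115 CPM. Krt5 and Krt14 had r = 0.41 (adjusted permutation p = 0.198; rho 0.35, adjusted p = 0.268), and r = 0.82 (adjusted permutation p = 0.0404) without Bad_WT 3 and Bad_WT 6, the tumours lowest in Krt5, but r = 0.11 without Bad_WT 4. Krt6b with Krt17 (r = 0.47, rho 0.51) and Krt7 with Krt19 (r = 0.17, rho 0.35) had adjusted permutation p-values of 0.169 and 0.591 for r and of 0.139 and 0.268 for rho; without the 2 farthest tumours r was 0.34 and 0.20. Without Bad_WT 4 alone, r was 0.83 for Krt8 with Krt18, 0.76 for Krt1 with Krt10, 0.42 for Krt6b with Krt17 and 0.11 for Krt7 with Krt19.

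**Figure D4:**
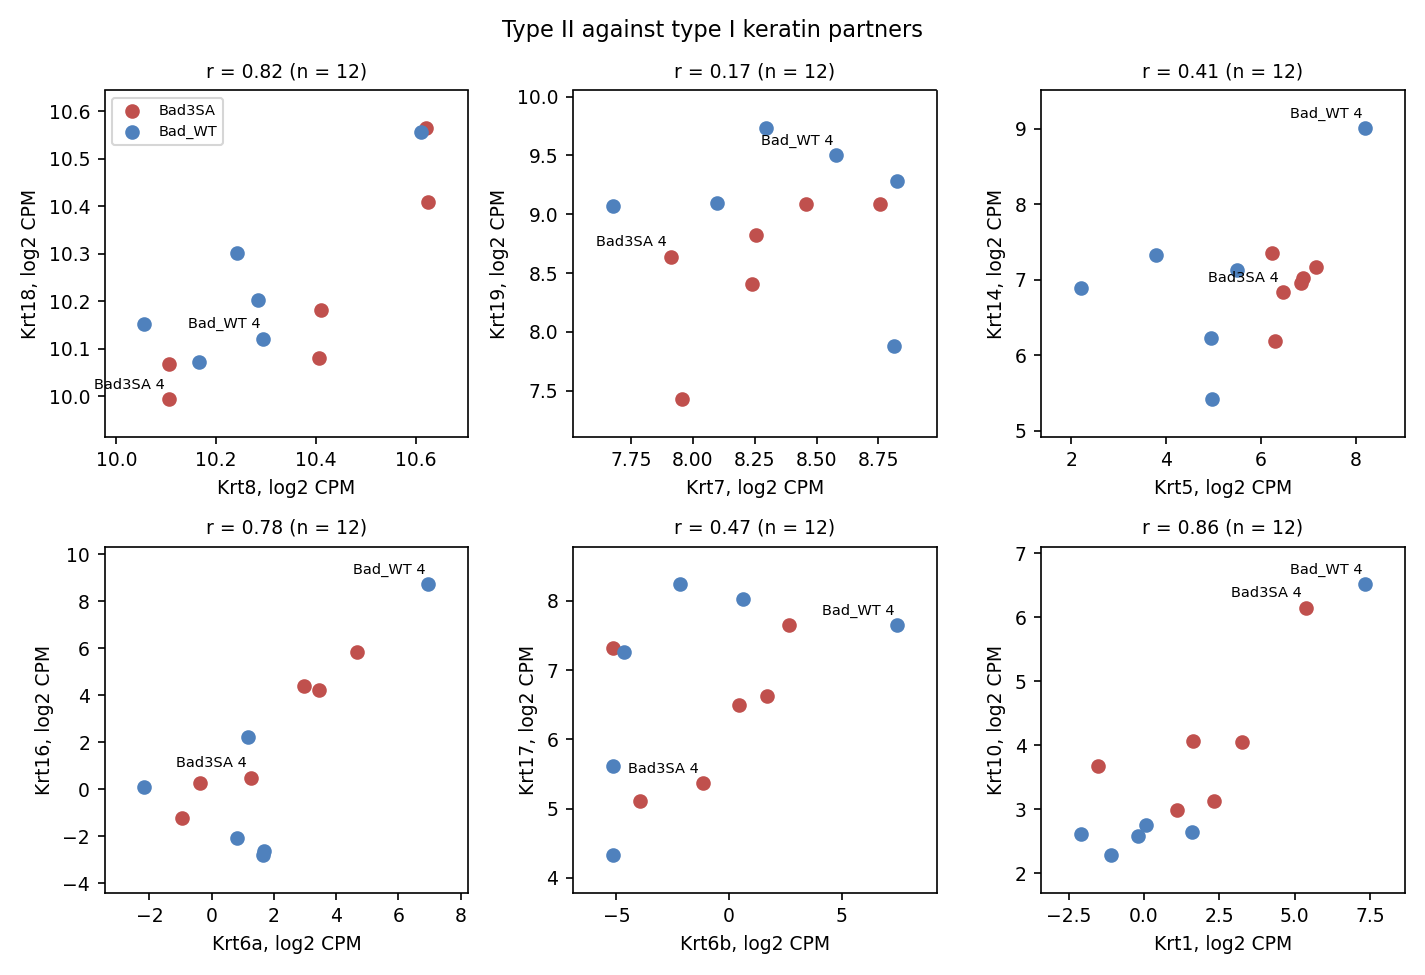
Log2 CPM of 6 type II keratins (horizontal) against their type I partners (vertical) in Bad3SA tumours (red) and Bad_WT tumours (blue), with r over all 12. Krt8 with Krt18 forms a line over a narrow range, Krt5 with Krt14 shows 2 Bad_WT tumours low in Krt5 alone, and Krt1 with Krt10 is set apart by Bad_WT 4 and Bad3SA 4.

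Other genes of squamous and hair tissue were read from lists alongside. Of 37 genes of the cornified envelope and squamous differentiation, 26 were tested and 0 passed, 13 positive and 13 negative with a median log2 fold change of -0.14, and 32 of the 37 were highest in Bad_WT 4. The smallest p belonged to Lor (3.13, SE 1.34, edgeR adjusted p = 0.276) and Ly6d (-0.92, SE 0.42, adjusted p = 0.304). Their summed level was 1064, 715, 612, 450, 442 and 197 CPM in Bad3SA 1 to 6, against 270, 339, 185, 1796, 320 and 306 CPM in Bad_WT 1 to 6. Without Bad_WT 4, 24 of 27 were positive and 2 were called, where 50.8% of all genes were positive and 1.72% were called. The 2 were Sbsn and Dmkn, which encode secreted proteins of the suprabasal epidermis. They rose by 1.91 (SE 0.38, edgeR adjusted p = 0.0236) and 2.98 (SE 0.52, adjusted p = 0.0126). Most of the list was highest in Bad_WT 4, so the upward shift follows in part from leaving it out and is no independent result. Tchh, which encodes trichohyalin of the inner root sheath, was at 165, 115, 79.8, 13.1, 1.20 and 2.50 CPM in Bad3SA tumours, against 2.54, 2.74, 6.51, 529, 11.3 and 2.65 CPM in Bad_WT tumours. Its 5 highest tumours were those of the summed sheath keratins. In its list of 15 hair follicle genes other than keratins 6 were tested and 0 passed; the smallest p belonged to S100a3 (1.01, adjusted p = 0.575) and Dlx3 (1.05, adjusted p = 0.62).

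The desmosome genes that anchor keratin filaments were steady in sum, at 1520 to 1920 CPM in Bad3SA tumours and 1553 to 2247 CPM in Bad_WT tumours. Single members were not, and 8 of the 18 were highest in Bad_WT 4. Over the 12 tumours Dsg1a ran from 0 to 30.5 CPM and Dsc1 from 0.0122 to 41.5 CPM. None of the 17 tested passed, and Pkp2 and Dsp, which encode plakophilin and desmoplakin, had the smallest p (-0.30 and -0.39, edgeR adjusted p = 0.327 and 0.371). The desmocollin gene Dsc3 was highest in Bad_WT 4, and without that tumour it rose by 3.62 (SE 0.61, edgeR adjusted p = 0.0106). Of 23 transcriptional regulators of keratin genes tested 0 passed, with Grhl2 (-0.37, adjusted p = 0.140) and Grhl1 (0.46, adjusted p = 0.182) first. Trp63, the regulator of basal epithelial identity, was at 42.3, 32.4, 33.4, 24.7, 15.6 and 12.5 CPM in Bad3SA tumours, against 11.3, 34.9, 12.8, 49.5, 23.3 and 11.7 CPM in Bad_WT tumours (log2 fold change 0.16, SE 0.41, edgeR adjusted p = 0.857).

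**Figure D5:**
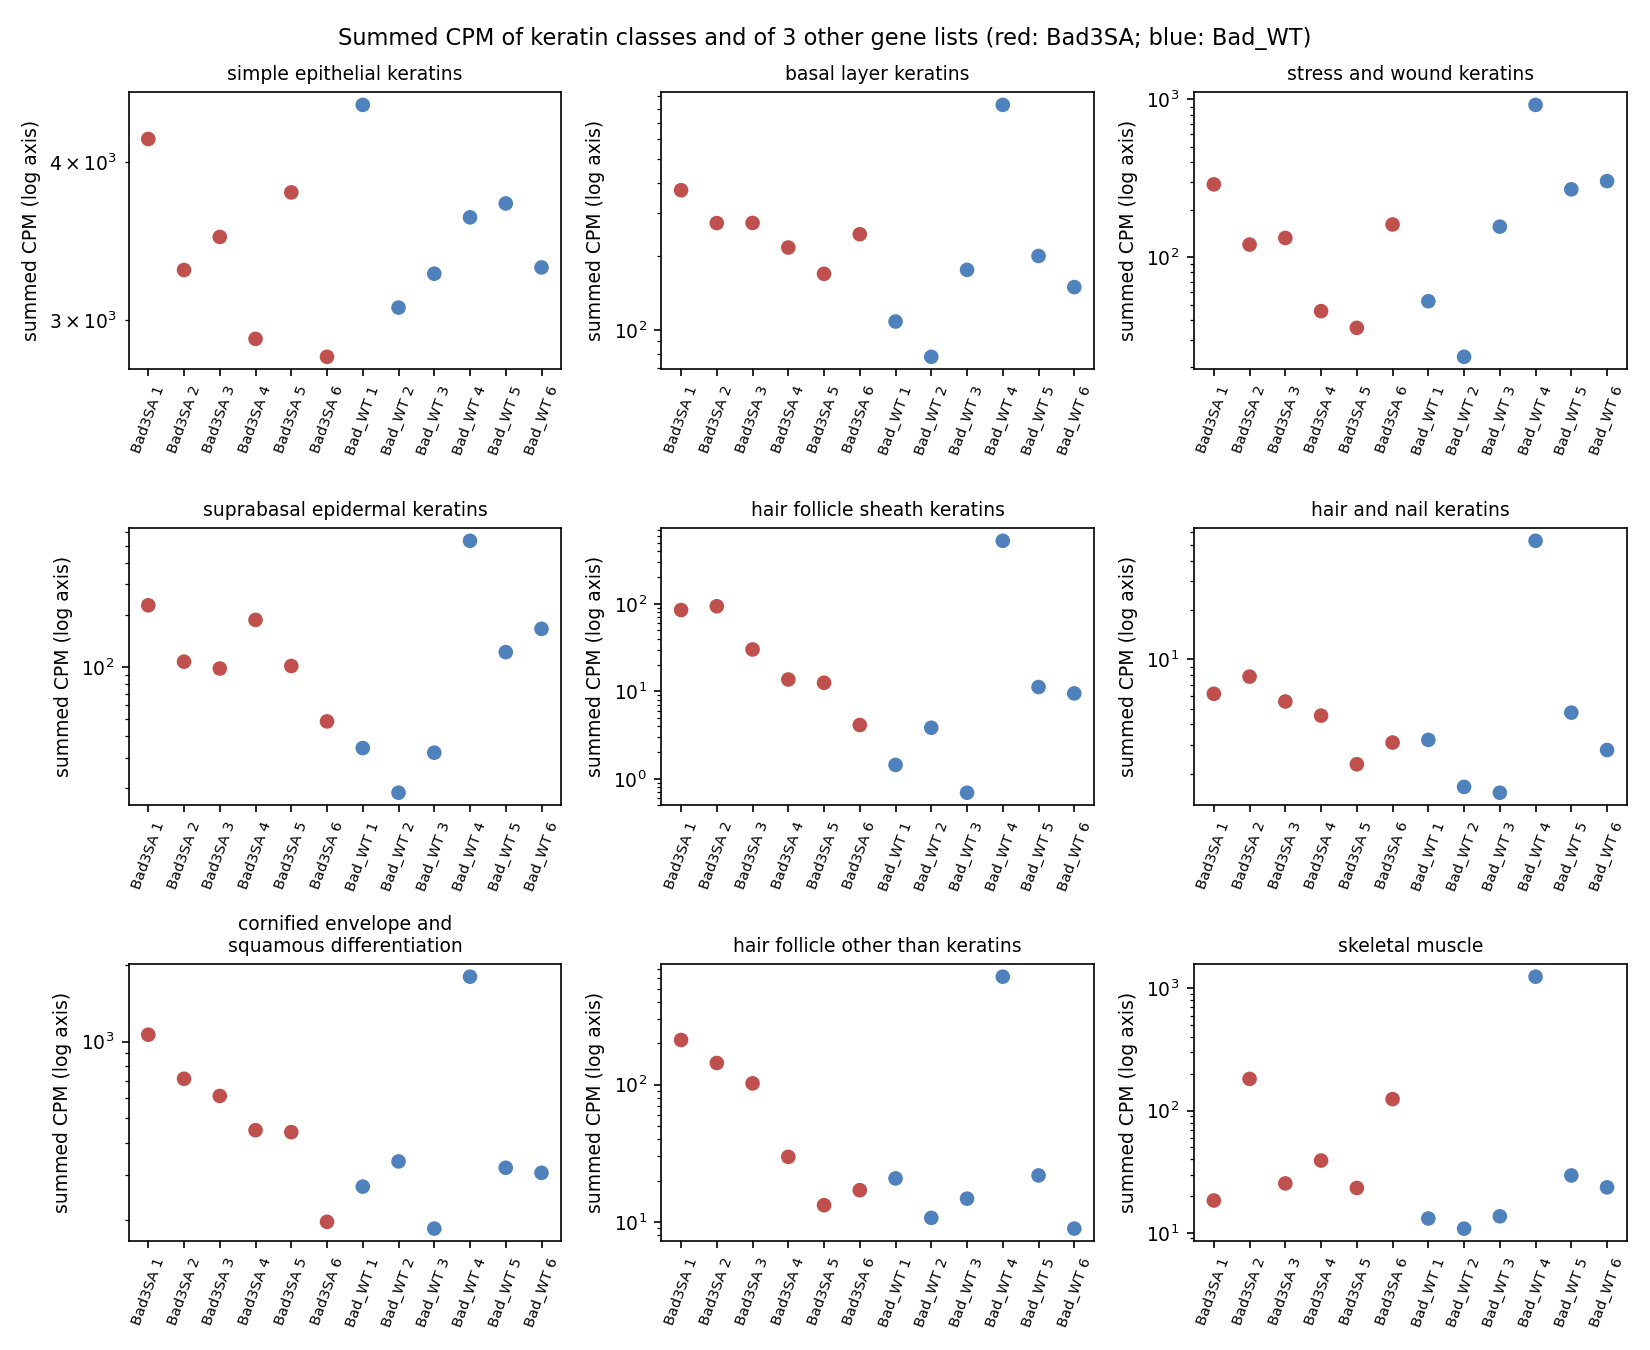
Summed CPM (log axis) of 6 keratin classes and 3 other gene lists in each tumour, Bad3SA (red) left and Bad_WT (blue) right. Simple-epithelial keratins span a 1.58-fold range, whereas sheath keratins and hair follicle genes are highest in Bad_WT 4 and then in Bad3SA 1 and 2, and skeletal muscle genes are highest in Bad_WT 4 and then in Bad3SA 2.

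Markers of other tissues were summed in the same way. Luminal markers lay at 3402 to 4356 CPM in Bad3SA tumours and 3565 to 4440 CPM in Bad_WT tumours, with 0 of 12 called, so markers of the labelled tissue were present in every library. Myoepithelial markers lay at 1367 to 2504 CPM and 852 to 2071 CPM in Bad3SA and Bad_WT tumours, with 0 of 12 called; Cdh3, which encodes P-cadherin, was at 14.9 to 30.3 CPM in Bad3SA tumours and 1.57 to 15.7 CPM in Bad_WT tumours (edgeR log2 fold change 1.63, SE 0.46, adjusted p = 0.118, and 2.07, SE 0.42, adjusted p = 0.0264 without Bad_WT 4). Of 12 skeletal muscle genes 10 were highest in Bad_WT 4, where they summed to 1247 CPM, against 18.4 to 182 CPM in Bad3SA tumours and 10.8 to 29.5 CPM in the other Bad_WT tumours. Among the Bad3SA tumours, Bad3SA 2 had the highest sum of sheath keratins, 93.9 CPM, and the highest muscle sum, 182 CPM. Bad3SA 1, with 85.0 CPM of sheath keratins, had the lowest muscle sum of the Bad3SA tumours, 18.4 CPM.

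Skin melanocyte genes summed to 4.17 to 8.88 CPM in Bad3SA tumours and 3.19 to 8.17 CPM in Bad_WT tumours. Of the Bad_WT tumours Bad_WT 4 had the highest sum, and the highest level of Mitf, 7.07 CPM. None of the 8 genes was highest of all 12 tumours in Bad_WT 4. The defining markers Tyr and Dct were at or under 0.0163 and 0.0808 CPM in all 12. Sebaceous gland genes summed to 52.2 to 72.0 CPM in Bad3SA tumours and 48.3 to 87.2 CPM in Bad_WT tumours. Of 5 tested, the stearoyl-CoA desaturase gene Scd3 rose (edgeR log2 fold change 1.75, SE 0.24, adjusted p = 0.00202) and the desaturase family gene Fads6 fell (-1.09, SE 0.22, adjusted p = 0.0255), and the defining marker Awat1 had no count in 11 tumours. Its relative Awat2 was detected in all 12, at 1.03 to 2.60 CPM in Bad3SA tumours and 0.781 to 1.29 CPM in Bad_WT tumours (edgeR log2 fold change 0.67, SE 0.26, adjusted p = 0.241). Fibroblast, leukocyte, endothelial and adipocyte lists had 0 calls with all 12 tumours. Leukocyte markers summed to 215 to 687 CPM in Bad3SA tumours and 137 to 717 CPM in Bad_WT tumours, the highest being Bad_WT 4, and fibroblast markers to 368 to 3099 CPM and 307 to 2380 CPM in Bad3SA and Bad_WT tumours. The part of skin, hair follicle or muscle tissue in the keratin levels was not tested.

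The protein-coding genes most like 3 keratins in pattern were found by Pearson r of log2 CPM over the 12 tumours, which share library depth and genotype. For Krt8 they were Mpst, Cdkn1a, Psmd7, Vapb and Fbxo33 (r = 0.91 to 0.87). For Krt5 they were Col17a1, Trp73, Cntn2, Pcdhga6 and Dsc3 (0.95 to 0.93), of which Col17a1 encodes a collagen of hemidesmosomes and Trp73 a relative of p63. For Krt10 they were Lce1a1, Flg, Hrnr, Stfa3 and Pla2g2f (0.91 to 0.82), of which the first 3 encode proteins of the cornified layer. Without Bad_WT 4 the r of these genes was 0.88 or more for Krt8, 0.92 or more for Krt5 and 0.73 or more for Krt10.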

How the data were processed

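Polyadenylated RNA from the tumours was sequenced in paired reads of 100 bp, per the labels. The counts are whole numbers per Ensembl gene, deposited by the authors without normalisation. Per the submitters' processing notes, fastp 0.23.1, STAR 2.7.9a, DESeq2 and GRCm38 were used; no source used here states how reads were counted, on which annotation, or with which strand setting. The second table deposited by the authors lists each gene's log2 fold change from DESeq2 with its error, a Wald score, the average signal over tumours, and p-values before and after adjustment. Its sign was read from a Spearman rho of -0.997 with the fold changes fitted here over 18019 genes.

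The whole count table was filtered with filterByExpr, scaled by TMM and tested with edgeR 4.0.16 (quasi-likelihood, robust; R 4.3.3). P-values were adjusted by the Benjamini-Hochberg method, and 0.05 was the threshold. Standard errors were obtained as |log2 fold change| over the root of F. Log2 CPM used a prior count of 2. Correlations used 100000 permutations, two-sided, adjusted over 6 pairs, with scipy 1.17.1. Gene positions and exon lengths come from GENCODE release 21 for mouse, identities from BLAST+ 2.17.0, and promoters from RefSeq. Alternatives were DESeq2 1.42.0, limma 3.58.1, other filters, end-point age, a block by title number, and leaving out each tumour. The main edgeR fit, DESeq2 and limma voom, each with genotype alone, were tested on simulated data. The other alternatives were not. Limits from 3 counts cover counting error only.

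Members and lists were chosen with earlier results of these data known. Full statistics are given for the 8 members with the highest level per kilobase, the 8 with the smallest p, members called and members with a tumour far from the rest of its genotype. From the lists, called genes, Trp63 and the 2 smallest p in the squamous, hair follicle, desmosome and regulator lists are given; in the other lists only genes on which a statement rests are named. Same-numbered tumours come from different mice, and their deviations correlated above 0.1 for 1 of 6 numbers, so the numbers were not taken as pairs.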

Additional observations from a re-analysis of the deposited data

Results flagged for a closer look

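Of 78 groups of 6 tumours examined for a tumour far from the others, by the gap on the log2 CPM scale divided by the range of the group, 11 passed Dixon's critical value for 6 samples at the 95% level. Chance flags about 1 group in 20, or 3.9 here. Bad_WT 4 was the high tumour in 5 of them: Krt10 (0.891), Krt84 (0.782), Krt75 (0.758), the summed hair and nail keratins (0.682) and Krt28 (0.640). Bad_WT 6 was the low tumour for Krt4 (0.736), for the mucosal and corneal keratins, which Krt4 dominates (0.741), and for Krt19 (0.644). Bad3SA 4 was high for Krt10 (0.659), Bad3SA 6 was low for Krt78 (0.634) and Bad_WT 3 was high for Krt9 (0.628).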

How the results depend on the processing

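The count of 0 keratins called by edgeR held with DESeq2 size factors, end-point age, the replicate block, a fit without robust dispersion, and either no filter or 1 CPM in at least 6 tumours, and 11 of the 12 tumours left out in turn. It became 1 with DESeq2, 1 with limma voom and 2 without Bad_WT 4, a range of 0 to 2 over the tumours left out. Chosen after seeing the data, fits without Bad_WT 4 gave 0 with age, 15 with DESeq2 and 4 with limma voom. Krt5 then ran from 2.03 to 2.15, Krt75 from 5.35 to 6.42 and Krt10 from 1.18 to 2.34. Over all genes the calls became 1017 (DESeq2), 579 (voom), 163 (1 CPM filter), 73 (age) and 105 (replicate block), 147 to 315 with a tumour left out, and 97, 1526 and 715 in the fits without Bad_WT 4 with age, DESeq2 and voom. By Pearson r, 3 of 6 pairs were called with DESeq2 size factors, other prior counts, deviations from the genotype mean and 11 of 12 tumours left out in turn, and 2 without Bad_WT 4; by Spearman rho 2 were called, and without the 2 farthest tumours 1 (Krt5 with Krt14). The log2 difference of the summed keratin level was -0.12, or -0.20 to 0.0049 with a tumour left out.

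The sign of uncalled keratins turned in several fits, and the cause was not tested. With limma voom the log2 fold changes turned to 1.76 (Krt1), 0.90 (Krt6a), 3.86 (Krt6b), 0.072 (Krt7), 0.20 (Krt14), 3.82 (Krt16), 0.17 (Krt17), 4.71 (Krt25), 3.15 (Krt27), 5.07 (Krt28), 1.20 (Krt71), 5.94 (Krt73), 0.23 (Krt78), 1.18 (Krt79), 0.66 (Krt80), 0.068 (Krt83), 0.22 (Krt84) and 0.50 (Krt87). With the replicate block they turned to 1.08 (Krt1), 0.75 (Krt6a), 1.35 (Krt6b), 2.64 (Krt16), 2.38 (Krt25), 2.39 (Krt27), 3.78 (Krt28), 0.86 (Krt71), 3.69 (Krt73), 0.27 (Krt78), 0.54 (Krt79), 0.079 (Krt80) and 0.32 (Krt87); of the title numbers only number 6 matched best with itself. With age they turned to 0.17 (Krt7), 0.30 (Krt17), 0.087 (Krt18), 0.38 (Krt79) and 0.25 (Krt80), and with the 1 CPM filter to 0.0084 (Krt18). With a tumour left out, the range was -2.83 to 3.19 for Krt1, -2.38 to 1.95 for Krt6a, -4.94 to 2.50 for Krt6b, -0.71 to 1.88 for Krt10, -0.69 to 0.23 for Krt14, -3.10 to 3.80 for Krt16, -0.11 to 0.073 for Krt18, -3.45 to 3.18 for Krt25, -1.34 to 1.53 for Krt27, -1.08 to 5.47 for Krt28, -1.17 to 1.70 for Krt71, -1.90 to 5.23 for Krt73, -0.53 to 0.61 for Krt78, -0.63 to 0.46 for Krt79, -0.43 to 0.67 for Krt80, -1.06 to 0.59 for Krt84 and -0.71 to 0.71 for Krt87. DESeq2 and its size factors turned none. Low counts in most tumours limit the comparison of the 22 untested keratins, although some were high in single tumours: Krt90 had 745 counts in Bad3SA 2 and 1911 in Bad_WT 4.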
